A study of Mus musculus with 12 samples.

Results

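Classical target genes of the coactivator YAP and its TEAD partners were followed in 12 mouse liver arrays. They are 10 genes (Ccn1, Ccn2, Ankrd1, Axl, Igfbp3, Myof, F3, Nuak2, Tgfb2 and Ptpn14) of the 19937 measured, listed by name as widely used targets of the pathway. Each is represented by 1 array row, and all 10 were found. There were 4 groups of 3 libraries, all on the C57Bl6 background, each read on 1 Affymetrix MoGene 1.0 ST array. The first was of uninduced liver cells that carry YFP and were isolated by FACS, called hepatocytes in the labels. A second held wild-type organoids cultured for 2 weeks. The other 2 groups were organoids from livers in which Yap had been on for 3 weeks, grown for 2 weeks more, either without doxycycline, which turned Yap off (the Yap-off organoids), or with doxycycline, which kept it on (the Yap-on organoids). The sources used here do not give the promoter that drives Yap, the age of the animals, or whether replicates were separate animals. The p-values therefore reflect how much libraries of a group vary, and this variation may be technical.

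YAP and its paralog TAZ carry no DNA-binding domain of their own. When the kinases of the Hippo pathway do not hold them in the cytoplasm, they enter the nucleus and bind TEAD factors, which sit on DNA at a short motif. The genes described here are among those most often used as a readout of that activity. In the liver, active YAP is known for driving hepatocytes towards a ductal or progenitor state.

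To show the sequence to which TEAD factors can bind, the promoters of the targets were searched for its core, GGAATG, on both strands. RefSeq sequences of the 250 bases before the start site (build GRCm38.p6) were matched by symbol for 8 of the 10 genes. The core occurred in 4 of these 8, Ankrd1, Axl, Ccn1 and Ptpn14, against 12.6% of all 32851 promoter windows of that length and 14.4% of 27025 genes with any such window. The motif of the AP-1 factors, TGANTCA, which is its own reverse complement, occurred in F3 alone of the 8, against 6.75% of the windows. A match is a description of letters and not a proven binding site. The 5 promoters with a match are printed 5′ to 3′ on the strand of the gene, with the match in capitals (GGAATG or its complement CATTCC, and TGANTCA in F3).
Ankrd1, chr19:36119845-36120094, minus strand: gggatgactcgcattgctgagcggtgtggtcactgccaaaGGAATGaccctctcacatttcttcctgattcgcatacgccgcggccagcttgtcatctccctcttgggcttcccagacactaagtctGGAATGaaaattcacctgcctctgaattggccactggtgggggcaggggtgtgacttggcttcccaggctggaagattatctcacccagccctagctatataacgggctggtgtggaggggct
Axl, chr7:25788734-25788983, minus strand: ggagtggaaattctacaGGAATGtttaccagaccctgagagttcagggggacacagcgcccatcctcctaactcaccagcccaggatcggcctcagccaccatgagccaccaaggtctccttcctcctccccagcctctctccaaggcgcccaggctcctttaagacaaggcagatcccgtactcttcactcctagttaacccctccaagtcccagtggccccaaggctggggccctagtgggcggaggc
Ccn1, chr3:145649986-145650235, minus strand: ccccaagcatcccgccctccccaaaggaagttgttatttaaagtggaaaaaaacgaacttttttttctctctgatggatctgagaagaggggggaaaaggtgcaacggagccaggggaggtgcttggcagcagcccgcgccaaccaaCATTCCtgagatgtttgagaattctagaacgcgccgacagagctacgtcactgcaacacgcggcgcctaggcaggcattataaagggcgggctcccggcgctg
Ptpn14, chr1:189728018-189728267, plus strand: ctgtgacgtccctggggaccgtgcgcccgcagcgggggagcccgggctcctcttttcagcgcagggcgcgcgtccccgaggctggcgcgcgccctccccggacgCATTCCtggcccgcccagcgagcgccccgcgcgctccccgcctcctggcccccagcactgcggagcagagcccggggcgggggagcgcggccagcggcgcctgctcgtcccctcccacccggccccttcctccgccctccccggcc
F3, chr3:121723287-121723536, plus strand: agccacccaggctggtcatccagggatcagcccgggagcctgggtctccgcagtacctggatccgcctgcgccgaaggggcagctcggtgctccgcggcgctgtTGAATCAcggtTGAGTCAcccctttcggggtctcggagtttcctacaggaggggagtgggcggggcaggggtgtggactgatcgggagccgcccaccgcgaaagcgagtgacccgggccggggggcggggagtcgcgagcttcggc
Counted from the start site, the first base of the match lay at -210 and -123 in Ankrd1, -233 in Axl, -103 in Ccn1 and -146 in Ptpn14. The AP-1 motif of F3 began at -146 and -135. The 4 genes with the TEAD core did not move alike in the arrays: with Yap on, Ankrd1, Axl and Ccn1 fell and Ptpn14 rose, as described below.

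Before the targets, the libraries themselves need a description. The deposited values are RMA intensities, used here as log2, on which the median gene of an array lay between 4.14 and 4.34, a guide to where background limits a reading. Markers of macrophages, summed over 10 genes on the linear scale, stood at 24949 in the library labelled hepatocyte 2 but at 354 and 488 in those labelled hepatocyte 1 and 3. In the wild-type organoids they stood at 13465 and 21970 in libraries 1 and 3 and at 253 in library 2. Endothelial markers followed, at 3165 in hepatocyte 2 and 12046 and 6925 in wild-type organoid 1 and 3, against 86 to 105 in the others. Markers of the bile duct, summed over 8 genes, ran the opposite way, at 138, 132 and 163 in the macrophage-rich libraries and between 2135 and 2486 in the other 3. Krt19, Krt7 and Sox9 carried most of the sums in those 3, at 7.90 to 10.46 on the log2 scale. Cftr (2.56 to 2.83) and Muc1 (3.04 to 3.43) lay below the array medians there. Muc1 was higher in hepatocyte 2 and wild-type organoid 3, at 4.07 and 4.73. Hepatocyte markers, summed over 9 genes, were high throughout both groups, at 11648 to 18318. Cyp2e1 read 10.14, 10.03 and 9.90 in the macrophage-rich libraries and 3.16, 3.22 and 2.74 in the other 3. Hnf4a and Fgb were lower in the macrophage-rich libraries, at 6.56 to 7.43 against 8.21 to 8.91 and at 10.11 to 11.13 against 11.23 to 11.35. Libraries of these 2 groups therefore do not group by label, and each comparison with them is given with and without hepatocyte 2 and wild-type organoid 2, which differ from the rest of their groups. That does not tell which labels are right. Bulk RNA cannot separate fewer cells of a type from less RNA per cell.

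Yap1 itself, the gene that was induced, was at 7.45, 7.40 and 7.28 in the Yap-on and at 7.35, 7.21 and 6.88 in the Yap-off organoids. The difference of 0.23 (95% interval -0.10 to 0.57) did not pass the test (adjusted p = 0.24), and the sources used here do not say whether the array's probes detect the transgene. In the control libraries Yap1 ranged from 4.93 in hepatocyte 2 to 7.51 in wild-type organoid 2.

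How the targets stand when Yap is kept on in culture is the question of the contrast between Yap-on and Yap-off organoids. They did not rise together. Of the 10 genes, 6 fell with Yap on (Axl, Igfbp3, Nuak2, Ankrd1, Tgfb2 and Ccn1) and 4 rose (Myof, F3, Ccn2 and Ptpn14). Fitted in limma on the 6 arrays of these groups, all 10 passed an adjusted p of 0.05, where 31.2% of all genes passed, 19.1% higher and 12% lower with Yap on. Among the 10646 genes at least as bright as the dimmest target, Tgfb2, the share was 47.3%. In all 10 targets the 3 Yap-on libraries lay on one side of the 3 Yap-off libraries, as in 53.5% of all genes. The median difference of the 10 was -1.05 on the log2 scale, against -0.08 over all genes, and their median size regardless of sign was 1.31 against 0.29. Neither overlap nor size was compared with genes of like brightness. The smallest two-sided p that a permutation of 3 against 3 arrays can give is 0.1, so none was used.

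**Figure D1:**
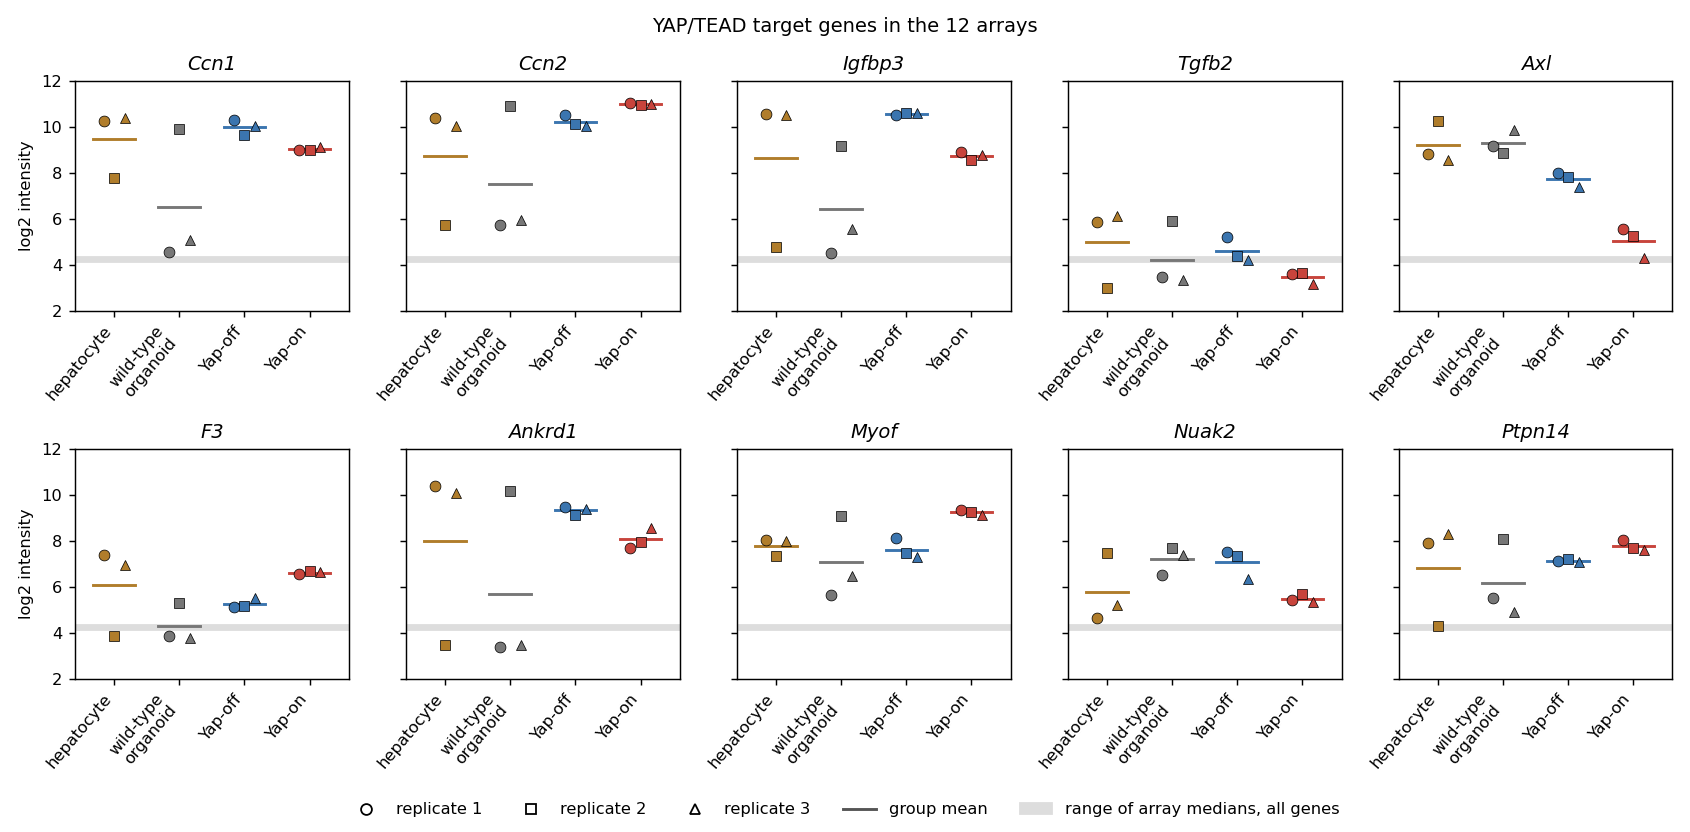
Log2 intensity (vertical axis) of the 10 target genes in each of the 12 libraries, by group as labelled. Symbols give the replicate number, short lines the group mean, and the grey band the range of the array medians over all genes (4.14 to 4.34). The 3 Yap-on libraries lie above the 3 Yap-off libraries for Ccn2, F3, Myof and Ptpn14 and below them for the other 6 genes.

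Of the secreted targets, the CCN proteins come first. Ccn1 (CYR61) and Ccn2 (CTGF) are matricellular proteins that bind integrins and are the most widely used YAP readouts. Ccn1 was at 8.99, 8.99 and 9.11 in the Yap-on and at 10.32, 9.67 and 10.04 in the Yap-off organoids. Every Yap-on library was below every Yap-off library, a difference of -0.98 (SE 0.17, adjusted p = 0.0056) or 1.97-fold lower on the linear scale. Its paralog Ccn2 went the opposite way, at 11.04, 10.95 and 11.02 with Yap on and 10.54, 10.11 and 10.06 with Yap off. The rise was 0.77 (SE 0.14, adjusted p = 0.0077), or 1.70-fold. With Yap on, the replicates of both genes lay close together, with SDs of 0.07 and 0.05 (n = 3), against 0.33 and 0.26 with Yap off.

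Igfbp3, a secreted carrier of insulin-like growth factors, gave the clearest fall against its spread. It stood at 8.90, 8.56 and 8.78 with Yap on and at 10.51, 10.59 and 10.60 with Yap off. The difference was -1.82 (SE 0.12, adjusted p = 5.9e-05), or 3.53-fold lower. Tgfb2, a ligand of the TGF-beta receptors, was the dimmest of the 10 on average. It read 3.63, 3.65 and 3.18 in the Yap-on organoids, below the array medians, and 5.21, 4.38 and 4.23 in the Yap-off organoids. The fall of 1.12 on the log2 scale (SE 0.27, adjusted p = 0.021) is limited by background at its lower end. Its call was lost without any 1 of the Yap-on libraries (adjusted p = 0.057, 0.051 and 0.071 without replicates 1, 2 and 3). It was lost too when values under 4 were set to 4 (adjusted p = 0.29, where the alternatives other than the 12-array fit ran from 0.0068 to 0.29).

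Among the membrane proteins, the receptor tyrosine kinase Axl moved most of the 10. The Yap-on libraries read 5.56, 5.25 and 4.30, the last within the range of the array medians (4.14 to 4.34). The Yap-off libraries read 7.98, 7.84 and 7.40. The groups were far apart, with a difference of -2.71 (SE 0.33, adjusted p = 0.0012), or 6.52-fold lower with Yap on. Axl was the 1 target whose call also held when the spread was taken from all 12 arrays (SE 0.48, adjusted p = 0.0057). F3, tissue factor, the cell surface starter of blood coagulation, rose instead. It read 6.54, 6.68 and 6.65 with Yap on and 5.12, 5.17 and 5.51 with Yap off, a difference of 1.36 (SE 0.13, adjusted p = 0.00042), or 2.57-fold.

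Axl is also made by macrophages and by stromal cells, so their markers are given beside it. Of 10 macrophage markers, limma called 4 lower with Yap on: Lyz2 (-2.71, adjusted p = 4.4e-05), Vsig4 (-0.84), C1qb (-1.03) and Ptprc (-0.33). It called 1 higher, Cd68 (1.21, adjusted p = 0.041). Of all genes 31.2% were called in this contrast, 19.1% higher and 12% lower. Vsig4 (2.62 to 4.02) and Ptprc (3.13 to 3.51) lay below the array medians in all 6 libraries. Lyz2 read 2.59, 3.04 and 3.11 with Yap on, below the array medians, and 5.50, 5.59 and 5.78 with Yap off. The summed linear intensity of the 10 markers hides these opposite moves. It ran from 190 to 205 in the Yap-on and from 184 to 249 in the Yap-off organoids, against 253 to 24949 in the control libraries. Of 10 fibroblast and stellate cell markers, 2 were called lower, the proteoglycan Dcn (-2.20, adjusted p = 0.00048) and the intermediate filament Des (-0.34, adjusted p = 0.038). Des lay at 3.26 to 3.76 in all 6 libraries, below the array medians. Sums of the fibroblast and stellate cell markers ran from 100 to 105 with Yap on and from 136 to 184 with Yap off. None of 10 endothelial markers was called in limma, and none had an unadjusted p under 0.05. In the Yap-on and Yap-off organoids no endothelial marker was above its array's median gene. The part of these cells in the fall of Axl was not tested.

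Inside the cell, Ankrd1 and Myof moved in opposite directions. Ankrd1, a nuclear ankyrin-repeat cofactor that is a standard YAP readout, read 7.68, 7.95 and 8.57 with Yap on and 9.46, 9.13 and 9.39 with Yap off. Every Yap-on value was lower, by -1.26 on average (SE 0.23, adjusted p = 0.0070), or 2.40-fold. Myof, myoferlin, a membrane repair protein of the ferlin family, stood at 9.35, 9.27 and 9.13 with Yap on and at 8.11, 7.47 and 7.28 with Yap off. This was the largest rise of the 10, at 1.63 (SE 0.21, adjusted p = 0.0017), or 3.09-fold.

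Both remaining targets are regulators that feed back on YAP. Nuak2, a kinase of the AMPK family known to promote YAP activity, read 5.45, 5.67 and 5.34 with Yap on and 7.53, 7.34 and 6.33 with Yap off. It fell by 1.58 on the log2 scale (SE 0.30, adjusted p = 0.0087), or 2.99-fold, a call lost when values under 4 were set to 4 in all genes (difference still -1.58, since no value of Nuak2 was under 4, adjusted p = 0.059, where those alternatives ran from 0.00048 to 0.059). Ptpn14, a phosphatase known to hold YAP in the cytoplasm, read 8.04, 7.71 and 7.62 with Yap on and 7.12, 7.22 and 7.10 with Yap off. It rose by 0.65 (SE 0.13, adjusted p = 0.010), the smallest change of the 10, or 1.57-fold.

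**Figure D2:**
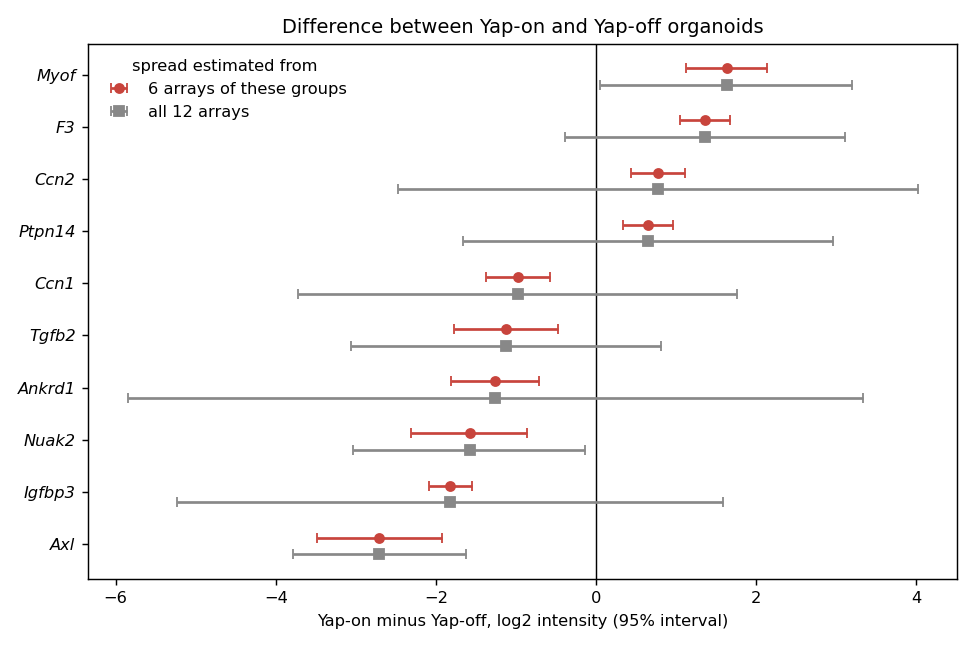
Difference between Yap-on and Yap-off organoids (horizontal axis, log2 intensity) for each target, with 95% intervals from limma. Red points take the spread from the 6 arrays of these groups and grey squares from all 12 arrays. The red intervals of all 10 genes lie clear of 0, whereas of the grey ones those of Axl, Nuak2 and Myof do, and 1 target, Axl, passes the adjusted threshold.

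How firmly these differences stand depends on which arrays give the spread. When all 12 arrays were fitted, so that the mixed control libraries entered the spread, 1 of the 10 targets was called, Axl, where 11.5% of all genes were. The adjusted p of the other 9 then lay between 0.15 and 0.77, with the differences unchanged. With all arrays but hepatocyte 2 and wild-type organoid 2, all 10 were called, 4 higher and 6 lower, where 29.7% of all genes were.

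Other measured features moved with the same contrast. All 9 measured hepatocyte markers were called lower with Yap on, where 12% of all genes were. Their sums fell from 25764 to 32248 to 2892 to 3162, although Ttr and Hnf4a stayed high, at means of 11.27 and 8.54. Of 8 biliary markers 7 were called higher, where 19.1% of all genes were, with sums rising from 750 to 1235 to 9613 to 11005. Cftr, counted among these 7, lay at 2.36 to 3.27 in all 6 libraries, below the array medians. Xist, made by females, was between 8.49 and 9.20 in the Yap-off and between 3.14 and 3.20 in the Yap-on organoids. The Y-linked gene Eif2s3y was between 2.50 and 2.85 and between 7.13 and 7.42. The sex of the cells and the state of Yap cannot be told apart in these groups. The part of cell state in the changes of the targets was not tested. Wild-type organoids read 3.14 to 3.30 in Xist and 6.19 to 7.11 in Eif2s3y, nearer the Yap-on than the Yap-off organoids. In Yap-off against wild-type organoids, sex and group therefore cannot be told apart either. Eif2s3y ran from 2.78 to 6.81 in the libraries labelled hepatocyte, so these differed among themselves. The part of sex in the comparisons with controls was not tested.

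The 10 targets belong to a published signature of YAP and TAZ activity. Of its 12 other genes, 3 rose and 1 fell, and 8 did not pass, with a median difference of 0.36. The 4 of 12 called are close to the 31.2% of all genes called in this contrast, so the count is no result about the signature. Dock5, an activator of Rac, rose by 0.97 (adjusted p = 0.010), the stress gene Gadd45a by 0.77 (adjusted p = 0.023) and Crim1, a membrane protein that binds bone morphogenetic proteins, by 0.67 (adjusted p = 0.012). Foxf2, a forkhead factor of mesenchyme, was called lower by -0.30, but lay at 2.67 to 3.07 in all 6 libraries, below the array medians. Whether the 10 targets differ from these 12 was not tested.

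Beyond the signature, 14 of 16 further genes named in the literature as YAP targets were measured. Of these, 3 rose, 3 fell and 8 did not pass. Among all genes 31.2% passed, and 47.3% of those at least as bright as Tgfb2, so the count is no result about this list. The cell cycle gene Ccnd1 rose by 0.75 (adjusted p = 0.0094), the oncogene Myc by 0.70 (adjusted p = 0.0050) and the peptide endothelin 1 (Edn1) by 0.67 (adjusted p = 0.022). Edn1 was dim, at 3.61 to 4.11 with Yap on. Dlc1, known as a tumour suppressor of the liver, stood at 3.14, 3.25 and 3.06 with Yap on and at 7.17, 7.46 and 6.95 with Yap off, a difference of -4.04 (SE 0.15, adjusted p = 3.6e-06). Arhgap29 fell by 1.23 on the log2 scale (adjusted p = 0.00028). The third, the leukocyte integrin Itgb2, differed by -0.31 (adjusted p = 0.041) between values of 3.06 to 3.46, all below the array medians.

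In the pathway itself, 20 of 21 listed genes were measured, of which 5 rose, 3 fell and 12 did not pass. This count too is no result about the list, beside the 31.2% of all genes and 47.3% of the brighter ones that passed. Vgll3, a cofactor that binds TEAD in place of YAP, was at 2.90, 3.09 and 3.11 with Yap on, below the array medians, and at 6.85, 6.54 and 6.95 with Yap off. The difference was -3.74 (SE 0.14, adjusted p = 3.5e-06). TAZ (Wwtr1) was at 7.10, 7.12 and 7.16 with Yap on and at 8.08, 8.12 and 7.95 with Yap off, a fall of 0.93 on the log2 scale (adjusted p = 0.00051). Of the TEAD factors, Tead2 fell, from values of 4.27 to 4.62 to values of 3.94 to 4.18 (-0.46, adjusted p = 0.040). Tead1 differed by 0.40 (adjusted p = 0.062), Tead3 by -0.22 (adjusted p = 0.60) and Tead4 by -0.26 (adjusted p = 0.37), none of which passed. The 5 genes that rose were Nf2 (merlin, 0.90, adjusted p = 0.0064), Wwc1 (KIBRA, 0.82, adjusted p = 0.0025), Amotl1 (0.76, adjusted p = 0.035) and the kinases Lats1 (0.70, adjusted p = 0.012) and Stk4 (0.68, adjusted p = 0.029). On all 12 arrays limma called 1 of the 12 signature genes, 2 of the 14 further targets and 0 of the 20 pathway genes. Of all genes 11.5% were called in that fit. Among the pathway genes 4 had an unadjusted p under 0.05.

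**Figure D3:**
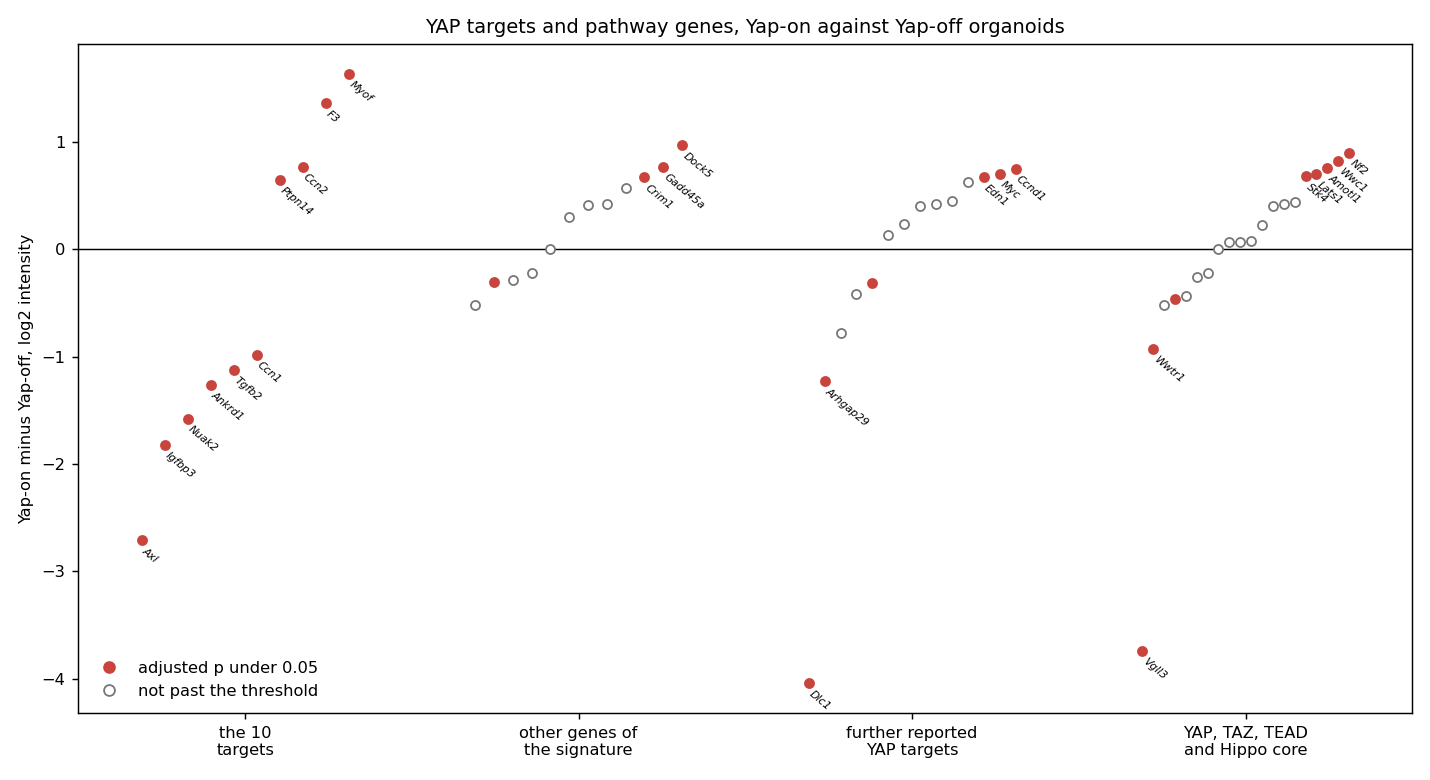
Difference between Yap-on and Yap-off organoids (vertical axis, log2 intensity) for the 10 targets, 12 further genes of the signature, 14 further reported YAP targets and 20 pathway genes, each point 1 gene. Filled points passed an adjusted p of 0.05 on the 6 arrays, and Tead1, Lats2 and Amotl2 stand in 2 lists. The largest falls are those of Dlc1 and Vgll3 (-4.04 and -3.74), and no gene shown rises by more than Myof (1.63).

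The control libraries, in which Yap was not induced, show how wide the range of these targets is without induction. Ankrd1 spanned 7.01 on the log2 scale over the 6 control libraries, Igfbp3 6.06, Ccn1 5.83 and Ccn2 5.19. In hepatocyte 1 and 3 and wild-type organoid 2, Ankrd1 read 10.40, 10.07 and 10.19, above every Yap-off and every Yap-on library. It read 3.46, 3.39 and 3.47 in the macrophage-rich libraries hepatocyte 2 and wild-type organoid 1 and 3, below the array medians. Ptpn14 was likewise higher in the first 3 than in the macrophage-rich libraries, at 7.91, 8.28 and 8.09 against 4.29, 5.50 and 4.91, although Yap-on 1, at 8.04, lay above hepatocyte 1. Tgfb2 was also higher there, at 5.89, 6.15 and 5.90 against 3.02, 3.46 and 3.34.

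Among the other targets the controls differed in detail. For Ccn2 the values were 10.40, 10.06 and 10.92 in hepatocyte 1 and 3 and wild-type organoid 2 and 5.73, 5.74 and 5.96 in the macrophage-rich libraries. All 3 Yap-on libraries lay above all 6 controls for Ccn2 and Myof, although by little above wild-type organoid 2, which read 10.92 and 9.10. Ccn1 had an intermediate value of 7.78 in hepatocyte 2, against 4.58 and 5.10 in wild-type organoid 1 and 3, and 9.92 to 10.41 in the other 3. F3 was high in hepatocyte 1 and 3, at 7.37 and 6.96, but at 5.32 in wild-type organoid 2, near the Yap-off organoids. Igfbp3 read 10.58 and 10.52 in hepatocyte 1 and 3 and 9.17 in wild-type organoid 2, against 4.52 to 5.56 in the rest.

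Axl and Nuak2 departed from this arrangement. Axl was high in all 6 controls, from 8.55 in hepatocyte 3 to 10.28 in hepatocyte 2, and every control lay above every Yap-off and every Yap-on library. Its span over the controls, 1.73, was the smallest of the 10. Its highest values, 10.28, 9.85 and 9.18, were those of the macrophage-rich libraries, and the other 3, with macrophage sums of 253 to 488, read 8.55 to 8.87. The part of macrophages in these levels was not tested. Nuak2 was lowest in hepatocyte 1 and 3, at 4.66 and 5.21, below all Yap-on libraries, and between 6.50 and 7.68 in the other 4.

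**Figure D4:**
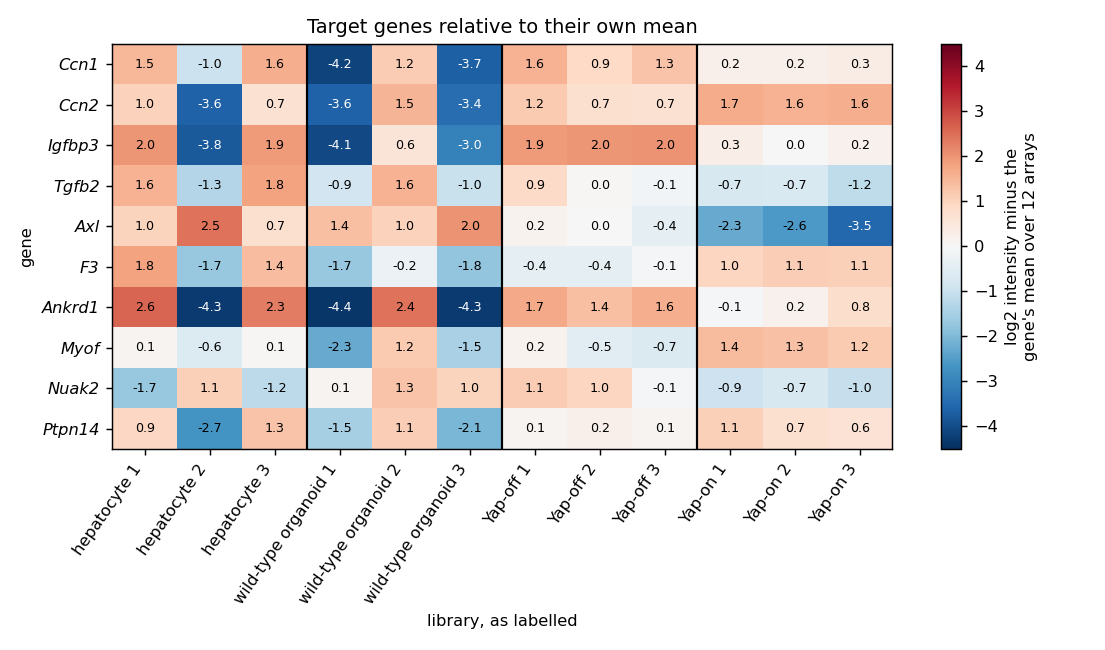
Log2 intensity of each target minus its own mean over the 12 arrays, with genes in rows and libraries, as labelled, in columns. Black lines part the 4 groups. In hepatocyte 2 and wild-type organoid 1 and 3, Ccn2, Igfbp3, Ankrd1 and Ptpn14 are at their lowest, while Axl is at its highest there and lowest in the Yap-on libraries.

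Tested by label on all 12 arrays, these control groups allowed few calls. Axl was the 1 target called in Yap-on organoids against wild-type organoids (-4.26, SE 0.48, adjusted p = 0.00044) and against the libraries labelled hepatocyte (-4.18, SE 0.48, adjusted p = 0.00050), where 5.47% (4.02% higher, 1.45% lower) and 6.19% (4.26% higher, 1.93% lower) of all genes were called. In Yap-off organoids limma called 0 of the 10 against wild-type organoids, with 3 at an unadjusted p under 0.05, and 2.61% of all genes (1.42% higher, 1.19% lower). Against the libraries labelled hepatocyte it called 0 as well, with 1 at an unadjusted p under 0.05 (1.90% of all genes, 0.878% higher and 1.02% lower). Axl differed there by -1.56 (adjusted p = 0.13) and -1.47 (adjusted p = 0.20). These comparisons share their Yap-on, Yap-off or control libraries, so their results are not independent of each other.

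Most of these counts changed when the doubtful libraries were left out, which alters both the group means and the shared spread. Without hepatocyte 2 and wild-type organoid 2, the wild-type organoids left were libraries 1 and 3, with macrophage sums of 13465 and 21970. The hepatocyte libraries left were 1 and 3, with sums of 354 and 488. Against these wild-type organoids, 9 of the 10 targets were called in Yap-on organoids, 7 higher and 2 lower (41.0% of all genes). In Yap-off organoids 9 were called, 8 higher and 1 lower (32.3%). The part of macrophages in these calls was not tested. Against the libraries labelled hepatocyte, 8 were called in Yap-on organoids, 2 higher and 6 lower (21.6%), and 5 in Yap-off organoids, 1 higher and 4 lower (14.0%). Ankrd1 shows how much turned on the libraries left out. With Yap on it was 4.63 higher than in the remaining wild-type organoids (adjusted p = 3.4e-07), a size limited by background since those read 3.39 and 3.47, and differed by -2.17 from the remaining libraries labelled hepatocyte (adjusted p = 0.00018). With all libraries the differences were 2.38 and 0.09 (adjusted p = 0.50 and 0.98). Axl kept its fall with Yap on, at -4.48 and -3.64 (adjusted p = 6.5e-06 and 7.7e-05). Leaving out wild-type organoid 2 alone gave 5 calls with Yap on and 6 with Yap off against wild-type organoids, where 30.2% and 19.4% of all genes were called. Leaving out hepatocyte 2 alone gave 2 and 2 against the libraries labelled hepatocyte, where 9.71% and 4.20% of all genes were.

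For each target the most similar profile over the 12 arrays was sought as the smallest root mean square difference after both genes were centred on their means, a description with no test. The closest of all was Ptpn21 to Ptpn14, at 0.19 log2 units. It was followed by Sorbs2 to Ccn2 (0.25), Ift57 to Myof (0.27) and Ripk4 to F3 (0.29). Tgfbr1 was nearest to Nuak2 and Ncam1 to Tgfb2 (both 0.34), Lrp1 to Axl (0.49), Fgfbp1 to Ankrd1 (0.55), Gstm5 to Ccn1 (0.63) and Psat1 to Igfbp3 (0.68). Among the targets themselves, F3 and Ptpn14 were nearest to each other, at 0.64, and Ankrd1 and Igfbp3 next, at 0.77. Axl and Nuak2 had no close counterpart among them, each being nearest to the other at 1.55.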

How the data were processed

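Total RNA (Qiagen microRNEasy) was labelled with Nugen Pico WT kits, per the labels' protocols. The deposited intensities were made by the authors with RMA, per the submitters' processing notes; version, software and genome build are not given in the sources used here. RMA gives log2 values, but the values deposited here are linear (array medians 13.6 to 15.6), so log2 was taken. Of 34760 rows, 21640 naming 1 gene were kept, 954 genes with several were taken at their brightest row on average, and 19937 genes remained.

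Group means were estimated by lmFit and eBayes of limma 3.58.1 under R 4.3.3, with Benjamini-Hochberg adjustment over all genes and calls under 0.05. Yap-on against Yap-off organoids was fitted on its 6 arrays, since the control libraries did not group by label, and comparisons with controls on all 12. SEs and intervals are limma's. Simulated data for Yap-on against Yap-off organoids held 19937 genes, of which 100 changed by 1 and 100 by 2 (log2). Of these, 67% and 93% were recovered, and 12.1% of calls were false. For the 4 comparisons with controls, 33.0% to 51.5% of calls were false. All these shares lie above the 0.05 that the adjustment aims at, and the cause was not tested. Each simulated group had its own spread per gene, whereas limma fitted a shared spread. The shares also depend on how many genes were changed, whereas 31.2% were called in the real Yap-on against Yap-off contrast. They are not error rates of the calls reported here, which may still hold more false calls than 0.05 states. The number of arrays limits the precision. No filter on low values was applied, so all 10 targets were tested.

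The targets, lists, tests and alternatives were chosen with earlier results of these data known. Named are all targets, Yap1, Wwtr1, Tead1 to Tead4, per list up to 4 called genes each way with the largest difference, and the gene nearest to each target that spans at least 2 (log2). Stk4, markers and sex-linked genes named besides were chosen after their values were seen. Alternatives were other normalizations, rows, filters, variance models, thresholds and arrays, the replicate number as a block, and leaving out each library.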

Additional observations from a re-analysis of the deposited data

How the results depend on the processing

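In Yap-on against Yap-off organoids, no target changed direction under any alternative run. All 10 stayed called under renewed quantile normalization, median centring, other choices of row, the filter on dim genes, an intensity trend with robust eBayes and array weights. Counts fell to 8 with values under 4 set to 4 or an adjusted p under 0.01, and to 7 with a 2-fold minimum. On all 12 arrays 1 was called. Without 1 library each, 9 to 10 were called. The replicate numbers are shared by the groups but mark no common animal in the labels, and same-numbered Yap-on and Yap-off libraries did not deviate together (r over genes from -0.0638 to 0.0715). With the number as a replicate block 10 targets and 5404 genes were called here. In Yap-on and Yap-off organoids against wild-type organoids 1 and 0 targets were called, as without it. Against the libraries labelled hepatocyte, Yap-on and Yap-off organoids gave 1 and 0, also as without it. Of all genes 820, 170, 981 and 167 were called in these comparisons.

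In that order, array weights gave 9, 8, 4 and 2 calls among the targets (8293, 5199, 6334 and 2426 among all 19937 genes). The fits without hepatocyte 2 and wild-type organoid 2 gave 9, 9, 8 and 5 (41.0%, 32.3%, 21.6% and 14.0% of all genes). The fits without 1 library each gave 1 to 5, 0 to 6, 1 to 2 and 0 to 2. Over all genes these ran from 575 to 6022, 101 to 3864, 732 to 1935 and 113 to 837. The 6 arrays alone gave 2 in Yap-on organoids against the libraries labelled hepatocyte, where 1759 of all genes were called. Ankrd1, 0.09 in that comparison, turned to -0.02 with quantile normalization, -0.09 with the floor of 4, -1.88 with array weights, -2.17 without the doubtful libraries and between -2.17 and 1.30 without 1 library. In Yap-off organoids against the same libraries it turned from 1.35 to -0.55 with array weights, to -0.91 without the doubtful libraries and to between -0.91 and 2.56 without 1 library. The cause was not tested.

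Over all genes, calls between Yap-on and Yap-off organoids numbered 6212, and 2283 on all 12 arrays, 3381 with the floor, 3291 at 0.01, 2523 with a 2-fold minimum and 3763 to 7853 without 1 library (3763 and 4065 without Yap-on 1 and 2). In the comparisons with controls they ran from 544 to 8293, 61 to 6449, 666 to 6334 and 84 to 2792 over the alternatives. Signal near background limits Tgfb2, Ankrd1 and F3 in the macrophage-rich libraries, Axl in Yap-on 3, Tead2, Foxf2, Itgb2, Edn1, Dlc1 and Vgll3.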
